A study of Homo sapiens and Mus musculus with 12 samples.

Results

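The genes described here are ATF4 and other genes of the amino acid stress response, 31 in all, listed by symbol: 11 enzymes of amino acid synthesis and one-carbon metabolism, 7 amino acid transporters and 13 stress regulators and effectors. The list was chosen with earlier results of these data known, and its symbols were looked up in 2 tables. In these, 26 of the 31 were found among the 15590 genes of a human table and all 31, under their mouse spelling, among the 17383 genes of a mouse table. Expression was measured by sequencing of polyadenylated RNA in 12 libraries, 3 in each of 4 groups. RKO is a line established from a human colon cancer. The doxycycline group consisted of these cells with a tetracycline-inducible shRNA that targets ZNF280C, given 1 ug/ml doxycycline for 72 h. The untreated group carried the same shRNA and received no doxycycline. The knock-out (KO) group consisted of colon tissue of C57BL/6J mice lacking Zfp280c, the mouse counterpart of that zinc finger gene, and the wild-type (WT) group of colon tissue of C57BL/6J mice, all aged 12 weeks. In RKO cells, induction of the shRNA and the presence of doxycycline itself cannot be told apart, since no line without the shRNA was analysed here. Whether the RKO libraries came from separate cultures is not given, so the p-values measure the spread between these libraries, which may be technical. The labels do not give which cells of the mouse lack the gene, and colon tissue is a mixture of cell types. Numbered KO and WT colons below are libraries, and whether each came from a separate mouse is not known.

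ATF4 is a basic leucine zipper transcription factor that is translated more when eIF2, the factor that brings the initiator tRNA to the ribosome, is phosphorylated. The kinases that do this sense amino acid shortage, misfolded protein in the endoplasmic reticulum, double-stranded RNA or lack of haem. With partners such as the C/EBP proteins it binds composite elements in its target genes. Among these are enzymes that make asparagine, serine, glycine, proline and cysteine, transporters that bring amino acids into the cell, and regulators that limit growth or feed back on the response. Colon cancer cells use these pathways for nucleotide synthesis and for glutathione. Target transcripts are a common readout of the response because the ATF4 protein is controlled at translation and its mRNA need not change.

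Promoter windows of the human members, from 250 bases before to 50 bases after the start, were taken from RefSeq (GRCh38.p14) to show which genes hold the core of the C/EBP-ATF element. The core was written as TGATGNAA and searched on both strands. Of the 31 members 25 matched, with 44 windows. PSPH, SHMT2, ALDH1L2, PYCR1, SLC7A11 and NUPR1 had no window and were not searched. The motif lay in 9 of the 44 windows (20.5%) and in 9 of the 25 genes (36%), against 3.62% of all 35116 windows and 4.46% of all 27305 genes. The motif TGACGTCA, the cyclic AMP response element, lay in 0 of the 44 windows, against 1.85% of all windows, so that no match to one motif overlapped the other. A match is a description of the letters only. The 250 bases before the start are printed 5′ to 3′ on the gene's strand, with matches to TGATGNAA in capitals. DDIT4 (chr10:72273674-72273923, plus strand) and JDP2 (chr14:75427474-75427723, plus strand, the upstream of its starts) are shown as the members called lower in RKO cells. Shown for a match at different distances are ASNS (chr7:97872409-97872658, minus strand, match at -68) and CHAC1 (chr15:40953221-40953470, plus strand, match at -209).
DDIT4: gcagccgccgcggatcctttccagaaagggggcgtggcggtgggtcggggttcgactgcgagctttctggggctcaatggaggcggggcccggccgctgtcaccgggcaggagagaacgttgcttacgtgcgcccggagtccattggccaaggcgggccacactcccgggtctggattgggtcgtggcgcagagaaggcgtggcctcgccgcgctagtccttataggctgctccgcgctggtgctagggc
JDP2: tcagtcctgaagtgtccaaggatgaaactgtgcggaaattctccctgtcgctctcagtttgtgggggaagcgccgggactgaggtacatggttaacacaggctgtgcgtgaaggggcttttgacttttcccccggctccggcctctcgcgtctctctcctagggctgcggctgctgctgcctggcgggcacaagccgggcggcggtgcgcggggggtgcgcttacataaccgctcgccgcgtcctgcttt
ASNS: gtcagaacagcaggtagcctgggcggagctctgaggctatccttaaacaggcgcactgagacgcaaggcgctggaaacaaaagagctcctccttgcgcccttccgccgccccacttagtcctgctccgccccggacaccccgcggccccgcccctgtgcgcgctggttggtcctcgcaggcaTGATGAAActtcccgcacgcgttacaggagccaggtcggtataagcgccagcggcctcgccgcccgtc
CHAC1: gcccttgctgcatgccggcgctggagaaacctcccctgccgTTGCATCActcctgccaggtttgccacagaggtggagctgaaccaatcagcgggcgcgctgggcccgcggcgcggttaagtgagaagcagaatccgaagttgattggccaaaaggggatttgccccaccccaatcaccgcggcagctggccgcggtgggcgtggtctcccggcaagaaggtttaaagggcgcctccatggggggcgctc

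The other 7 matches are shown as stretches of 30 bases, again 5′ to 3′ on the gene's strand with the match in capitals. They show which of the searched transporters and regulators hold the core in these windows and how the variable base differs. They came from ATF3 (chr1:212565205-212565234, plus strand), SLC1A4 (chr2:64989381-64989410, plus strand), SLC3A2 (chr11:62881719-62881748, plus strand), SLC7A1 (chr13:29595663-29595692, minus strand), JDP2 at its downstream start (chr14:75427995-75428024, plus strand), CEBPG (chr19:33374060-33374089, plus strand) and SLC1A5 (chr19:46784893-46784922, minus strand).
ATF3: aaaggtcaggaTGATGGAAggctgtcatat
SLC1A4: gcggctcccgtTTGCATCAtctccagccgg
SLC3A2: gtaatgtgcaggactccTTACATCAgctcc
SLC7A1: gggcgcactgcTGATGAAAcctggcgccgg
JDP2: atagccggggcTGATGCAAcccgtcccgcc
CEBPG: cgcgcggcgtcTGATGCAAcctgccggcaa
SLC1A5: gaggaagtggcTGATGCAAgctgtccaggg

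The targeted gene was lower in both systems. ZNF280C signal was 123, 99.6 and 79.1 with doxycycline, against 192, 172 and 227 without it, which is 51.0% of the untreated mean, and Zfp280c was 0.09, 0.09 and 0.22 FPKM in KO colons, against 2.48, 2.25 and 3.17 FPKM in WT colons. Levels in RKO are called signal. The authors label them FPKM after batch adjustment, but they follow read counts and are taken here as normalised read counts. They are treated as not per transcript length and are not compared between genes, whereas FPKM in the mouse table are per length. Library sums lay between 9050161 and 9195211 in RKO and between 491900.5 and 507206.3 in colon, and read depth is unknown. Of the 9 epithelial markers checked, 5 were analysed in RKO. They summed to 2037 to 2094 with doxycycline and 1929 to 1975 without it, with no overlap. At a limma adjusted p under 0.05, 1 of the 5 was called, against 1.14% of all genes. In colon 9 were analysed, and 0 were called, against 0% of all genes. There they summed to 10727 to 11729 FPKM in KO colons and 9208 to 11616 FPKM in WT colons. KRT19, KRT20, CDH1 and CDX1 and the 6 goblet cell markers were not analysed in RKO, and the part of cell state in the RKO results was not tested. Exactly equal values occurred in 310 genes between doxycycline library 2 and untreated library 2 and in 526 genes between doxycycline library 3 and untreated library 1, and in 0 genes in every other combination of libraries. Results are also given within these couples, with doxycycline library 1 and untreated library 3 as the couple left over.

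The RKO comparison addresses the effect of giving doxycycline to cells with the inducible shRNA. Of the 26 members 2, DDIT4 and JDP2, both stress regulators, fell, and 0 rose, at a Benjamini-Hochberg adjusted p under 0.05 in limma over all 15590 genes, where 1.14% of genes were called in either direction and 0.757% were called lower, with 0.385% called higher. Over all genes 60 were called higher and 118 lower, and with library sums made equal, quantile normalization or median centring the split was 59 and 67, 69 and 62, or 72 and 59. In 24 of the 26 members, against 55.1% of all genes, the log2 fold change was below 0. It had a median of -0.18 over the members and -0.012 over all genes. By class the median was -0.30 in the 10 regulators and effectors, -0.17 in the 7 transporters and -0.062 in the 9 synthesis enzymes. Between doxycycline library 2 and untreated library 2 the median differences of these classes were -0.66, -0.80 and -0.72 in that order. They were -0.0090, -0.069 and -0.048 between doxycycline library 3 and untreated library 1, and 0.037, 0.25 and 0.19 in the couple left over. The groups did not overlap in 5 members, all lower with doxycycline, against 13.3% of all genes lower and 8.65% higher in this way, and 9 of the 26 members had an unadjusted p under 0.05, against 17% of all genes. The members were chosen with earlier results of these data known and are not independent of each other, so these shares describe the list only. ALDH1L2, CBS, VLDLR, NUPR1 and STC2 were not analysed in RKO.

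Among the regulators, DDIT4, which encodes an inhibitor of the growth kinase complex mTORC1 that is induced by many stresses, had a signal of 408, 315 and 394 in doxycycline libraries 1, 2 and 3, against 508, 558 and 533 in untreated libraries 1, 2 and 3. All 3 doxycycline libraries lay below all 3 untreated libraries, at 69.9% of the untreated mean, with a log2 fold change of -0.52 ± 0.087 (SE, limma, adjusted p = 0.0335). JDP2, a basic leucine zipper protein that represses AP-1 target genes, had a signal of 179.9, 166 and 209 with doxycycline, against 243, 293 and 248 without it. Its groups did not overlap either, at 70.9% of the untreated mean, with a log2 fold change of -0.50 ± 0.093 (limma, adjusted p = 0.0433). Both were lower within each couple of libraries, which follows from groups that do not overlap. For DDIT4 the difference in log2(signal + 1) was -0.83 between doxycycline library 2 and untreated library 2, -0.36 between doxycycline library 3 and untreated library 1, and -0.38 in the couple left over. For JDP2 these differences were -0.81, -0.22 and -0.46 in the same order. Both stayed below 0 whichever library was left out, but with the couples as a block the limma adjusted p was 0.193 for DDIT4 and 0.214 for JDP2. With doxycycline library 3 or any untreated library left out it lay between 0.0698 and 0.136 for DDIT4, and with any of the 6 left out between 0.0633 and 0.150 for JDP2. Fold changes increased with GC content over all genes (Spearman 0.44 across 13118 genes, which are not independent), and with that trend removed the adjusted p was 0.0382 for DDIT4 and 0.0544 for JDP2.

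ATF4 itself had a signal of 2945, 2147 and 2711 in doxycycline libraries 1, 2 and 3, against 2701, 3204 and 2522 in untreated libraries 1, 2 and 3. The groups overlapped, with a log2 fold change of -0.12 ± 0.11 (limma, adjusted p = 0.663): doxycycline library 2 was the lowest and untreated library 2 the highest of the 6. CEBPG, a C/EBP protein that pairs with ATF4, had a signal of 689, 513 and 735 with doxycycline, against 599, 857 and 759 without it, with overlapping groups (-0.20 ± 0.14; adjusted p = 0.543). Its log2 fold change was -0.038 without doxycycline library 2 and -0.080 without untreated library 2. CEBPB, a further partner, had a signal of 1195, 888 and 1028 with doxycycline, against 1041, 1154 and 1031 without it. Neither of these partners passed the test, and both were lowest in doxycycline library 2.

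DDIT3, which encodes CHOP, a transcription factor that promotes cell death under lasting stress, had a signal of 469.7, 348 and 344 with doxycycline, against 417, 478 and 563 without it. It was lower in each couple, with differences of -0.46, -0.27 and -0.26 on the log2 scale, but its groups overlapped and it did not pass (-0.33 ± 0.13; limma, adjusted p = 0.221). ATF3, a stress-induced repressor and activator of the same protein family, had a signal of 85.0, 84.1 and 81.9 with doxycycline, against 81.9, 118 and 134 without it. Its doxycycline libraries lay within a narrow band while untreated libraries 2 and 3 lay above it, and doxycycline library 3 and untreated library 1 held the same value (-0.38 ± 0.15; adjusted p = 0.224). ATF5, which regulates mitochondrial stress genes, had a signal of 555, 423 and 539.6 with doxycycline, against 552, 535 and 459 without it, with overlapping groups and a log2 fold change of -0.032 ± 0.10 (adjusted p = 0.920).

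TRIB3, a pseudokinase that restrains ATF4, and CHAC1, which breaks down glutathione, are among the most sensitive targets of the response, and here they varied most between single libraries among the regulators. TRIB3 signal was 1465, 579.7 and 1108 with doxycycline, against 1049, 1759 and 1111 without it, a span of 3.03-fold between doxycycline library 2 and untreated library 2. CHAC1 signal was 155, 79.3 and 136 with doxycycline, against 127, 183 and 127 without it, a span of 2.31-fold between the same libraries. In TRIB3 the remaining libraries of the groups overlapped, whereas in CHAC1 both remaining doxycycline libraries lay above both remaining untreated ones. Neither gene passed (limma, adjusted p = 0.574 for TRIB3 and 0.595 for CHAC1).

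**Figure D1:**
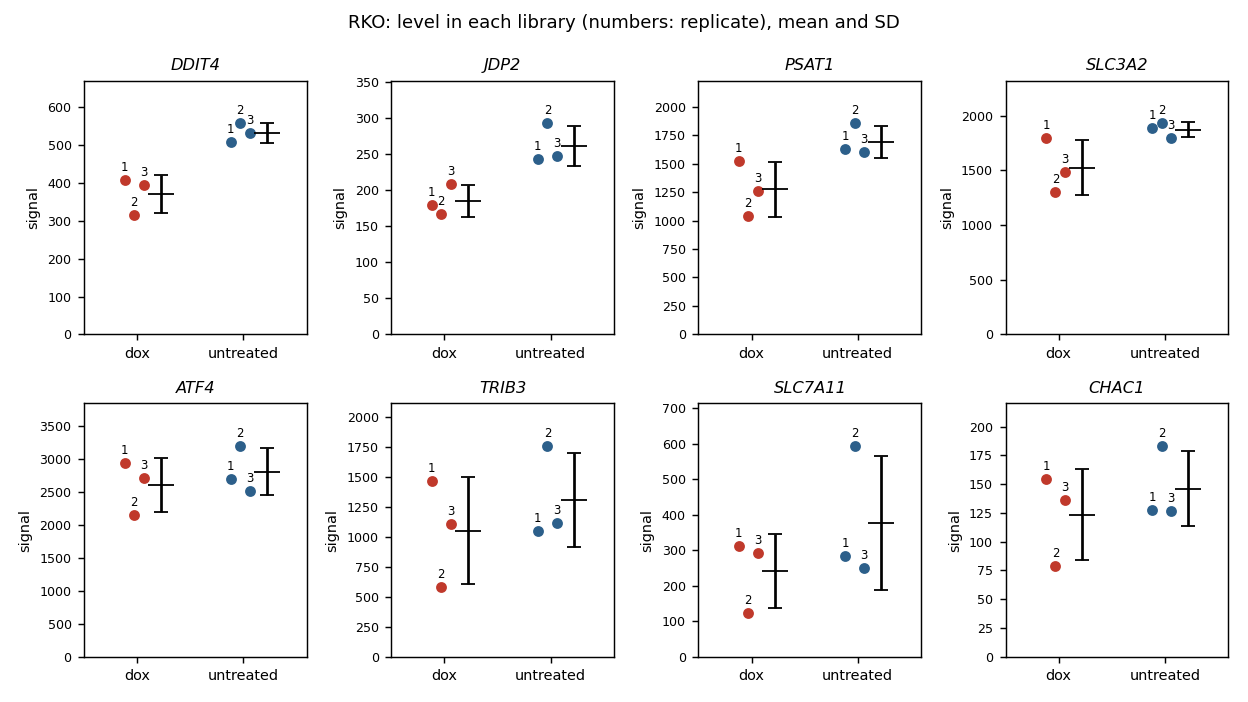
Signal (taken as normalised read counts, axes from 0) of 8 members in the 3 doxycycline and 3 untreated RKO libraries. Points are libraries marked with their replicate number, and bars are the mean and SD of 3. The groups of DDIT4, JDP2, PSAT1 and SLC3A2 do not overlap, while in ATF4, TRIB3, SLC7A11 and CHAC1 doxycycline library 2 is the lowest point and untreated library 2 the highest.

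Of the 7 transporters limma called 0 in either direction, against 1.14% of all genes, and gave 2 an unadjusted p under 0.05, against 17%. All 7 had a log2 fold change below 0, against 55.1% of all genes. Between doxycycline library 2 and untreated library 2, 7 were lower with doxycycline. Between doxycycline library 3 and untreated library 1 it was 4, and in the couple left over 1. SLC3A2, the heavy chain that carries several light-chain transporters to the cell surface, had a signal of 1792, 1301 and 1482 in doxycycline libraries 1, 2 and 3, against 1889, 1931 and 1796 in untreated libraries 1, 2 and 3. The groups did not overlap, although doxycycline library 1 and untreated library 3 lay side by side (-0.31 ± 0.092; adjusted p = 0.129). With each library left out in turn the log2 fold change of SLC3A2 lay between -0.43 and -0.20. It passed without doxycycline library 1, the doxycycline library nearest to the untreated ones (-0.43; limma, adjusted p = 0.0424). Fits with a library left out called between 1 and 24 of all genes.

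Among the light chains that pair with SLC3A2, SLC7A11, the cystine and glutamate exchanger that supplies cysteine for glutathione, had a signal of 313, 123 and 293 with doxycycline, against 285, 595 and 251 without it. This was a span of 4.85-fold, the widest of the 26 members, and the other 4 libraries lay between 251 and 313. SLC7A5, the large neutral amino acid transporter LAT1, had a signal of 3957, 2321 and 3151 with doxycycline, against 4336, 4917 and 3660.1 without it, with doxycycline libraries 2 and 3 below all untreated libraries and doxycycline library 1 within the untreated range (-0.48 ± 0.16; adjusted p = 0.172). Without doxycycline library 2 its log2 fold change was -0.28.

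The other transporters showed smaller differences between the group means. SLC7A1, which carries arginine and lysine, had a signal of 2881, 2331 and 2854 with doxycycline, against 2993, 3464 and 2637 without it. SLC1A5, a glutamine carrier, had 5184, 3845 and 4967 with doxycycline, against 4685, 5307 and 4353 without it. In both, doxycycline libraries 1 and 3 lay within the untreated range. SLC1A4, which carries alanine and serine, had a signal of 433, 311 and 457 with doxycycline, against 357, 541 and 349 without it. SLC6A9, a glycine carrier, had 84.0, 38.0 and 53.0 with doxycycline, against 57.6, 83.7 and 46.0 without it. In each of these 4 genes doxycycline library 2 was the lowest of the 6 and the groups overlapped, with limma adjusted p between 0.431 and 0.938.

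Among the 9 synthesis enzymes analysed in RKO, limma called 0 in either direction, against 1.14% of all genes. It gave 3 an unadjusted p under 0.05, against 17% of all genes, and 2 had groups that did not overlap and were lower with doxycycline, against 13.3%. PSAT1, which catalyses the transamination step of serine synthesis, had a signal of 1522, 1042 and 1263 in doxycycline libraries 1, 2 and 3, against 1624, 1853 and 1599 in untreated libraries 1, 2 and 3. All doxycycline libraries lay below all untreated libraries (-0.42 ± 0.11; adjusted p = 0.101). MTHFD2, a mitochondrial folate enzyme that passes one-carbon units on towards formate, had a signal of 2214, 1677 and 2283 with doxycycline, against 2435, 2770.1 and 2438 without it. Its groups were also apart (-0.32 ± 0.10; adjusted p = 0.148), and without doxycycline library 2 the log2 fold change was -0.18.

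The enzymes next to PSAT1 in the route to serine and glycine had overlapping groups. PHGDH, which starts the pathway from a glycolytic intermediate, had a signal of 2179, 1640.4 and 1790.5 with doxycycline, against 1933, 2083 and 1808 without it (-0.062 ± 0.090; limma, adjusted p = 0.797). PSPH, the phosphatase that ends it, had a signal of 178, 151 and 180.3 with doxycycline, against 171, 268 and 212 without it (-0.33 ± 0.14; adjusted p = 0.248). SHMT2, which turns serine into glycine in mitochondria, had a signal of 6185, 4796 and 4907 with doxycycline, against 5289, 5554 and 4866 without it, with doxycycline library 1 the highest of the 6. The difference between PSAT1 and these neighbours was not tested.

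ASNS, the enzyme that makes asparagine, had a signal of 3712, 2288 and 3201 with doxycycline, against 3157, 3869 and 2775 without it. CTH, which releases cysteine from cystathionine, had 132, 92.1 and 135 with doxycycline, against 102, 157 and 112 without it. In both, doxycycline library 2 was the lowest and untreated library 2 the highest, and the groups overlapped. The proline enzymes varied least between libraries among the 26 members. PYCR1, which makes proline, had a signal of 1928, 1667 and 1767 with doxycycline, against 1826, 1771 and 1689 without it. ALDH18A1, which makes its precursor, had 2952, 2904 and 2923 with doxycycline, against 2920.0, 2906 and 2954 without it. The 6 values of ALDH18A1 spanned 1.02-fold, 0.025 on the log2 scale, and 3 of the 15590 genes had a smaller range.

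**Figure D2:**
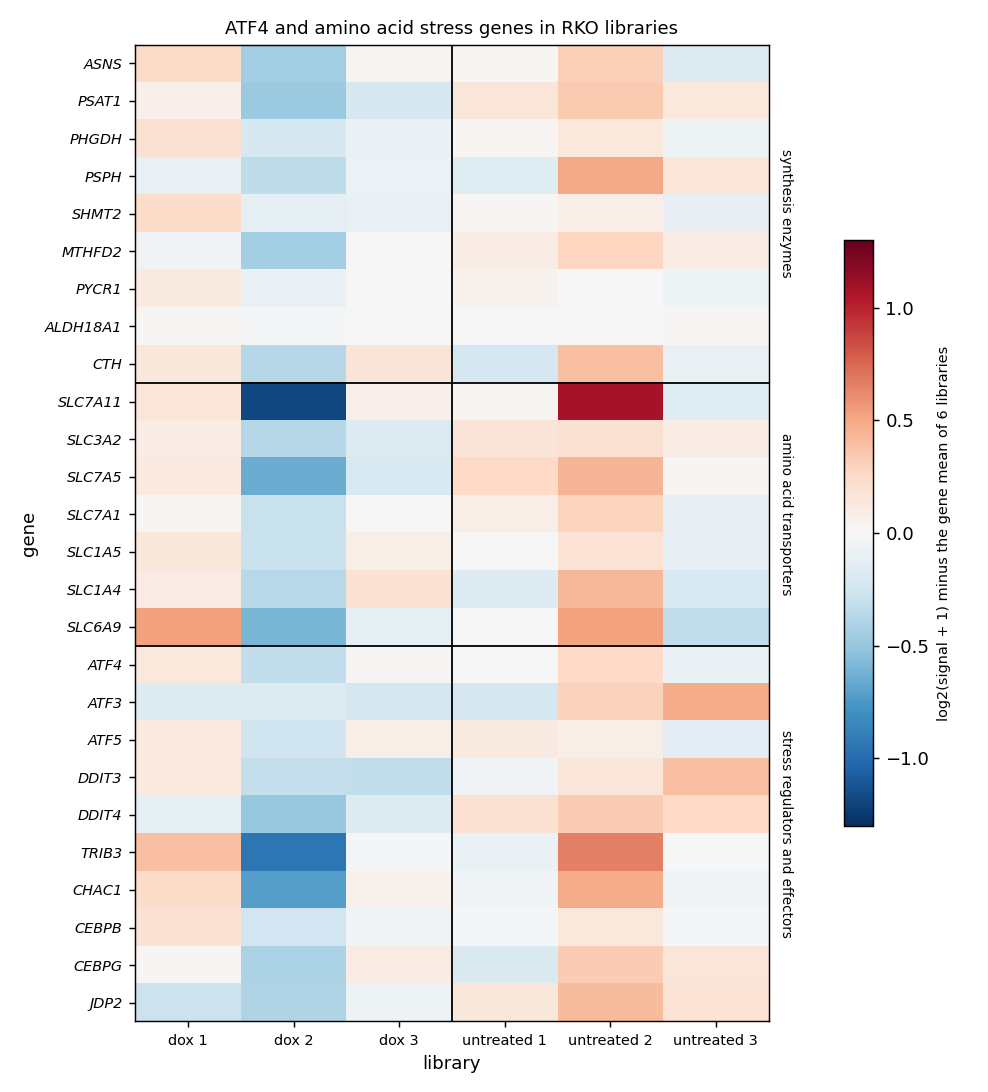
Log2(signal + 1) of each of the 26 RKO members minus its mean over the 6 libraries (colour, blue below and red above), with doxycycline libraries left of untreated ones and genes grouped by class. Doxycycline library 2 is the lowest of the 6 in 24 members and untreated library 2 the highest in 17, with median deviations of -0.37 and 0.31.

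Across the 26 members the low values gathered in doxycycline library 2. It was the lowest of the 6 libraries in 24 members, against 23.2% of all genes, and untreated library 2 was the highest in 17, against 14.5% of all genes. These counts are not independent, since the means of the 3 couples differed little, with a median range of 0.13 over the members. A low value in one library of a couple therefore goes with a high value in the other, and which of them is unusual was not tested. Doxycycline library 1 was the highest in 6 members, PHGDH, SHMT2, PYCR1, SLC6A9, ATF5 and CEBPB, against 10.9% of all genes. The median deviation of the members from their own means was 0.13 in doxycycline library 1, -0.37 in doxycycline library 2 and -0.0078 in doxycycline library 3, against 0.011, 0.31 and -0.035 in untreated libraries 1, 2 and 3. Over all genes these medians lay between -0.0077 and 0.014. The range over the 6 libraries had a median of 0.73 on the log2 scale in the members and 0.24 over all genes, and 6.57% of all genes had a range of at least the members' median.

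Within the couple of doxycycline library 2 and untreated library 2, all 26 members were lower with doxycycline, against 50.1% of all genes, with a median difference of -0.73. In the couple of doxycycline library 3 and untreated library 1, 14 members were lower and 11 higher with doxycycline, with a median of -0.025. In the couple left over, 10 were lower and 16 higher, with a median of 0.20. In all 3 couples 6 members were lower, DDIT3, DDIT4, JDP2, MTHFD2, PSAT1 and SLC3A2, and 0 were higher in all 3, against 18.2% and 12.1% of all genes. For all of them but DDIT3 this follows from groups that do not overlap. Of these 6, JDP2 and SLC3A2 held TGATGNAA in a promoter window, against 9 of the 25 members with windows (36%). In the windows of the other 4 no match was found. Without doxycycline library 2 the median log2 fold change of the members was 0.0045, and without untreated library 2 it was -0.075.

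**Figure D3:**
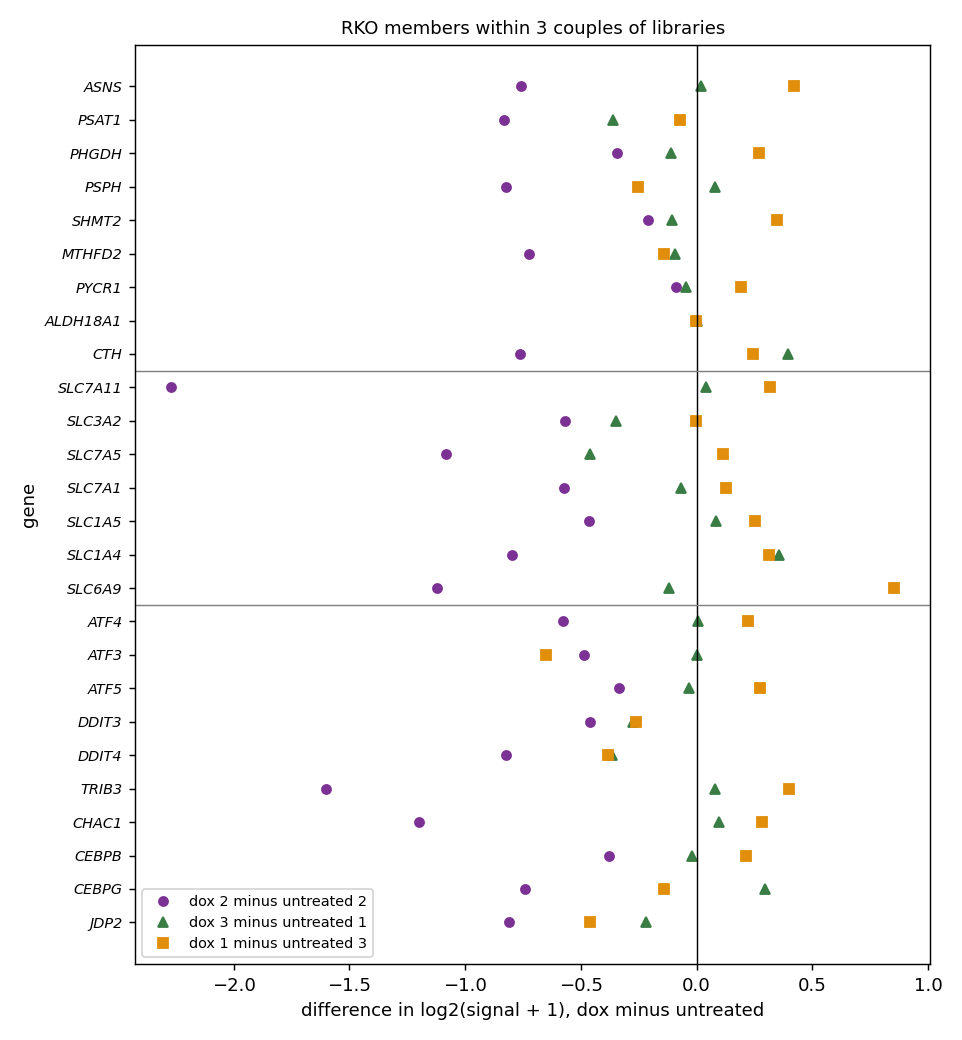
Difference in log2(signal + 1), doxycycline minus untreated, of each RKO member within 3 couples of libraries (circles: doxycycline 2 and untreated 2; triangles: doxycycline 3 and untreated 1; squares: doxycycline 1 and untreated 3, the couple left over). All 26 circles lie below 0, with SLC7A11 at -2.27 and TRIB3 at -1.60, while 16 squares lie above 0; DDIT4 and JDP2 are below 0 in all 3.

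Related genes outside the list were counted in RKO as well. Of the 16 stress sensors and eIF2 control genes, 13 other ATF4 targets, 16 genes of the unfolded protein response, 12 other one-carbon enzymes and 11 other amino acid transporters, limma called 0 in either direction, against 1.14% of all genes. At an unadjusted p under 0.05 there were 3, 4, 1, 4 and 0 in that order, against 17% of all genes. Their median log2 fold changes lay between -0.11 in the other ATF4 targets and -0.012 in the other transporters. EIF2S2, the beta subunit of eIF2, had a signal of 716, 625 and 732 with doxycycline, against 794, 818 and 785 without it (-0.21 ± 0.058; limma, adjusted p = 0.103). Groups were apart and lower with doxycycline also in EIF2AK2, the kinase PKR that senses double-stranded RNA (-0.10 ± 0.035; adjusted p = 0.181), whereas EIF2B4, a subunit of the exchange factor of eIF2, was higher by 0.10 ± 0.042 (adjusted p = 0.249).

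Among the other ATF4 targets, GPT2, the mitochondrial alanine transaminase, had a signal of 831, 737 and 866 with doxycycline, against 907, 984 and 884 without it (-0.19 ± 0.063; limma, adjusted p = 0.158), and SLC38A2, a glutamine and alanine carrier, had a log2 fold change of -0.18 ± 0.063 (adjusted p = 0.173). KLHL24 had one of -0.15 ± 0.054 (adjusted p = 0.186). In the unfolded protein response the lowest p belonged to XBP1, a transcription factor activated by splicing, at -0.18 ± 0.055 (adjusted p = 0.139). It was followed by PDIA6 and HSP90B1, a disulphide isomerase and a chaperone, at -0.065 ± 0.035 and -0.065 ± 0.050. MAT2A, which makes the methyl donor S-adenosylmethionine, was on the other side: its signal was 1917, 1765 and 1903 with doxycycline, against 1599, 1662 and 1679 without it, with groups apart and higher with doxycycline (0.18 ± 0.041; adjusted p = 0.0728). MTHFD2L, a relative of MTHFD2, had a log2 fold change of -0.19 ± 0.068 (adjusted p = 0.186). The other transporters with the lowest p, SLC38A1, SLC38A5 and SLC36A4, had log2 fold changes of -0.15, -0.068 and -0.094, with adjusted p of at least 0.396.

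The colon comparison addresses the loss of Zfp280c in the animal. Of the 31 members 25 averaged at least 1 FPKM and were tested. In limma 0 of them were called in either direction at an adjusted p under 0.05, as were 0 of all 11366 genes (0%). Only 2 members, Ddit4 and Slc3a2, had an unadjusted p under 0.05, against 12.5% of all genes. Log2 fold changes were above 0 in 14 members and below 0 in 11, against 55.4% of all genes below 0. The median was 0.051 on the log2 scale, against -0.024 over all genes. By class the median was -0.069 in the regulators, 0.21 in the transporters and 0.14 in the enzymes. In this mixed tissue fewer cells of a type and less RNA per cell cannot be told apart.

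By level, per transcript length, Atf4 was the most abundant member, with 93.2 ± 12.3 FPKM in KO colons and 97.2 ± 11.1 FPKM in WT colons (SD, n = 3 each). Nupr1, a small stress-induced chromatin protein, had 77.3 ± 22.4 FPKM in KO colons and 65.2 ± 16.2 FPKM in WT colons, and Cth, the cysteine-forming enzyme, 74.9 ± 0.94 and 65.6 ± 10.2 FPKM. Within 1 SD Nupr1 overlapped Atf4 in KO colons and not in WT colons, and Nupr1 and Cth overlapped each other in both groups. Slc1a5, Atf3, Slc3a2 and Cebpg followed, with means between 28.2 and 62.0 FPKM in either group. A mean below 1 FPKM left 6 members untested: Pycr1, Jdp2, Slc7a11, Chac1, Trib3 and Aldh1l2. Of these Jdp2, called lower in RKO, had 1.02, 0.71 and 0.84 FPKM in KO colons, against 0.77, 1.06 and 0.69 FPKM in WT colons, and Slc7a11, the cystine exchanger, 0.10, 0.14 and 0.15 FPKM in KO colons, against 0.34, 0.22 and 0.27 FPKM in WT colons, with groups that did not overlap. Pycr1, Chac1, Trib3 and Aldh1l2 lay between 0.07 and 1.19 FPKM in the 6 libraries.

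Ddit4, the mTORC1 inhibitor, had 12.25, 13.47 and 14.95 FPKM in KO colons, against 24.82, 14.98 and 21.38 FPKM in WT colons (replicates 1, 2 and 3). All KO values lay below all WT values, with KO colon 3 and WT colon 2 side by side, at 66.5% of the WT mean (-0.53 ± 0.18; limma, adjusted p = 0.396). Cebpg had 27.6, 30.8 and 29.01 FPKM in KO colons, against 32.6, 31.4 and 31.9 FPKM in WT colons, a small difference with no overlap (-0.13 ± 0.075; adjusted p = 0.456). The groups did not overlap in 3 tested members that were lower in KO colons, Ddit4, Cebpg and Slc1a5, and in 1 that was higher, Cth, against 9.79% of all genes lower and 7.13% higher in this way.

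The other regulators overlapped between the groups. Atf4 had 98.8, 79.1 and 102 FPKM in KO colons, against 90.8, 110.0 and 90.7 FPKM in WT colons (-0.062 ± 0.13; limma, adjusted p = 0.839), with KO colon 2 lowest and WT colon 2 highest. Atf5 had 9.64, 8.52 and 10.6 FPKM in KO colons, against 10.7, 10.2 and 10.1 FPKM in WT colons. Ddit3 had 17.6, 15.0 and 15.1 FPKM in KO colons, against 18.3, 15.8 and 16.2 FPKM in WT colons, and as in Atf5 all 6 values lay close together. Atf3 had 28.1, 38.9 and 29.8 FPKM in KO colons, against 43.2, 30.3 and 42.7 FPKM in WT colons: WT colons 1 and 3 were the highest, and WT colon 2 lay within the KO range (-0.25 ± 0.18; adjusted p = 0.542).

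**Figure D4:**
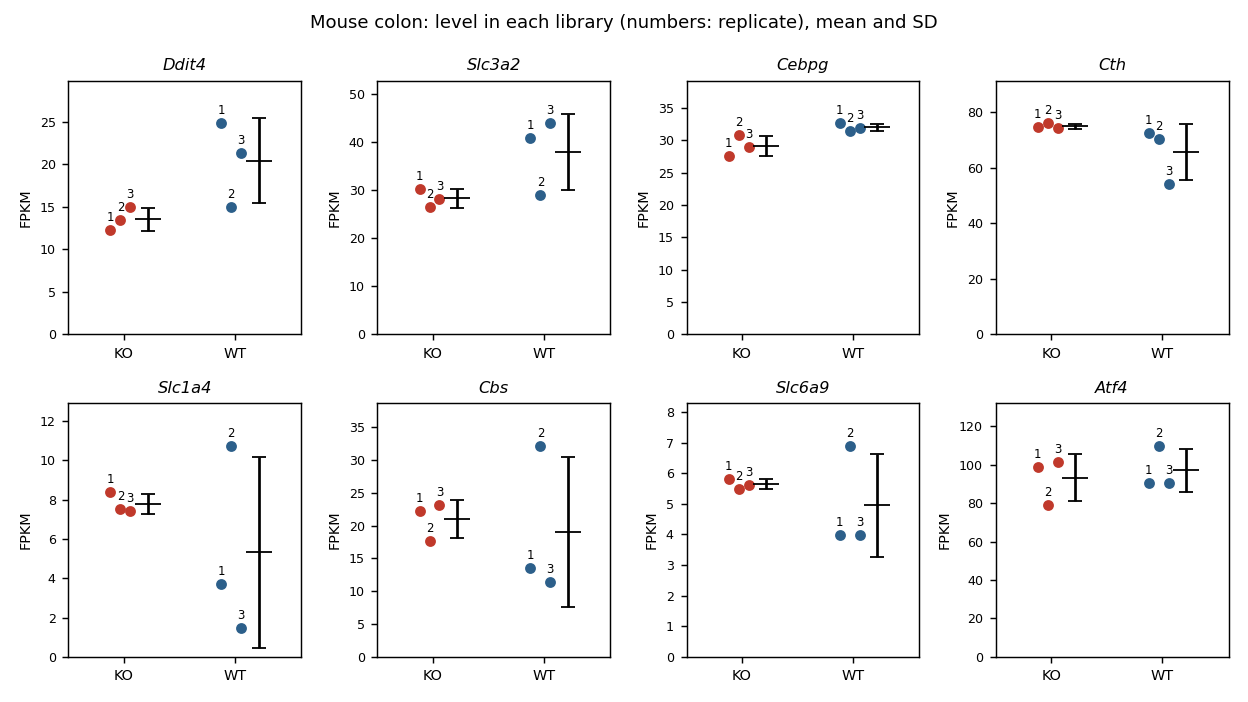
FPKM (axes from 0) of 8 members in 3 KO and 3 WT colon libraries. Points are libraries marked with their replicate number, and bars are the mean and SD of 3. Ddit4, Cebpg and Cth do not overlap between groups, while WT colon 2 lies apart from WT colons 1 and 3 in Slc3a2, Slc1a4, Cbs and Slc6a9.

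Cebpb, Nupr1, Stc2 and Vldlr gave limma adjusted p between 0.706 and 0.920. Nupr1 had 86.9, 51.7 and 93.4 FPKM in KO colons, against 54.5, 83.9 and 57.2 FPKM in WT colons. Stc2, a secreted glycoprotein induced by stress, had 3.24, 3.55 and 4.31 FPKM in KO colons, against 3.96, 4.52 and 1.62 FPKM in WT colons. Vldlr, a lipoprotein receptor, had 3.42, 3.73 and 3.50 FPKM in KO colons, against 4.03, 3.80 and 2.54 FPKM in WT colons. KO colon 2 was the lowest library for Nupr1 and WT colon 3 for Stc2 and Vldlr. Cebpb had 3.77, 3.47 and 4.65 FPKM in KO colons, against 3.91, 4.67 and 3.64 FPKM in WT colons, with overlapping groups.

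Of the 6 transporters tested in colon, the SLC3A2 counterpart Slc3a2 had 30.2, 26.4 and 28.1 FPKM in KO colons, against 40.8, 28.9 and 43.8 FPKM in WT colons. WT colon 2 lay within the KO range and WT colons 1 and 3 above it (-0.39 ± 0.16; limma, adjusted p = 0.396). Slc1a5, the glutamine carrier, had 54.3, 32.9 and 55.0 FPKM in KO colons, against 57.8, 62.6 and 65.6 FPKM in WT colons, with KO colon 2 far below the other KO colons (-0.42 ± 0.20; adjusted p = 0.409). Without KO colon 2 its log2 fold change was -0.18. The neutral amino acid carrier Slc1a4 had 8.38, 7.52 and 7.44 FPKM in KO colons, against 3.72, 10.8 and 1.47 FPKM in WT colons, so that the WT colons enclosed the KO colons. Slc6a9 had 5.81, 5.48 and 5.63 FPKM in KO colons, against 3.99, 6.90 and 3.98 FPKM in WT colons, with the same order of WT colons. Slc7a5, the LAT1 carrier, had 2.43, 1.56 and 2.33 FPKM in KO colons, against 1.48, 2.07 and 1.38 FPKM in WT colons (0.23 ± 0.17; adjusted p = 0.551). Slc7a1, the arginine carrier, had 5.91, 3.91 and 4.99 FPKM in KO colons, against 3.07, 4.58 and 3.77 FPKM in WT colons (0.30 ± 0.17; adjusted p = 0.457). In both, WT colons 1 and 3 lay below the KO range and WT colon 2 within it.

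Among the 9 enzymes tested in colon, Cth had 74.6, 76.0 and 74.2 FPKM in KO colons, against 72.6, 70.3 and 54.0 FPKM in WT colons, with the KO values close together and WT colon 3 below the other libraries (0.20 ± 0.12; limma, adjusted p = 0.480). Cbs, the enzyme before it in the route from homocysteine to cysteine, had 22.2, 17.7 and 23.2 FPKM in KO colons, against 13.6, 32.2 and 11.3 FPKM in WT colons, and the WT colons enclosed the KO colons. Psat1 had 3.02, 2.36 and 3.41 FPKM in KO colons, against 1.79, 2.79 and 1.63 FPKM in WT colons (0.37 ± 0.18; adjusted p = 0.413), higher on average in KO colons, whereas its RKO counterpart was lower with doxycycline. The remaining 6 enzymes had overlapping groups. Asns had 18.3, 11.9 and 13.7 FPKM in KO colons, against 12.4, 15.5 and 13.98 FPKM in WT colons. Phgdh had 4.16, 2.39 and 5.92 FPKM in KO colons, against 4.43, 4.71 and 2.48 FPKM in WT colons, and Psph, which ends the same pathway, 5.49, 3.50 and 4.57 FPKM in KO colons, against 4.41, 4.67 and 6.16 FPKM in WT colons. Both serine enzymes varied as much within a group as between the groups. Shmt2 had 5.68, 3.51 and 7.29 FPKM in KO colons, against 4.62, 7.98 and 5.47 FPKM in WT colons, and Mthfd2, a mitochondrial partner in one-carbon metabolism, 4.38, 2.69 and 3.75 FPKM in KO colons, against 2.69, 4.94 and 2.21 FPKM in WT colons. Aldh18a1 had 13.5, 6.65 and 9.75 FPKM in KO colons, against 4.85, 11.3 and 5.85 FPKM in WT colons. In these 3 mitochondrial enzymes WT colon 2 was the highest WT colon and KO colon 2 the lowest KO colon. Over the 6 enzymes, log2 fold changes lay between -0.14 and 0.43 and the adjusted p was at least 0.579.

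**Figure D5:**
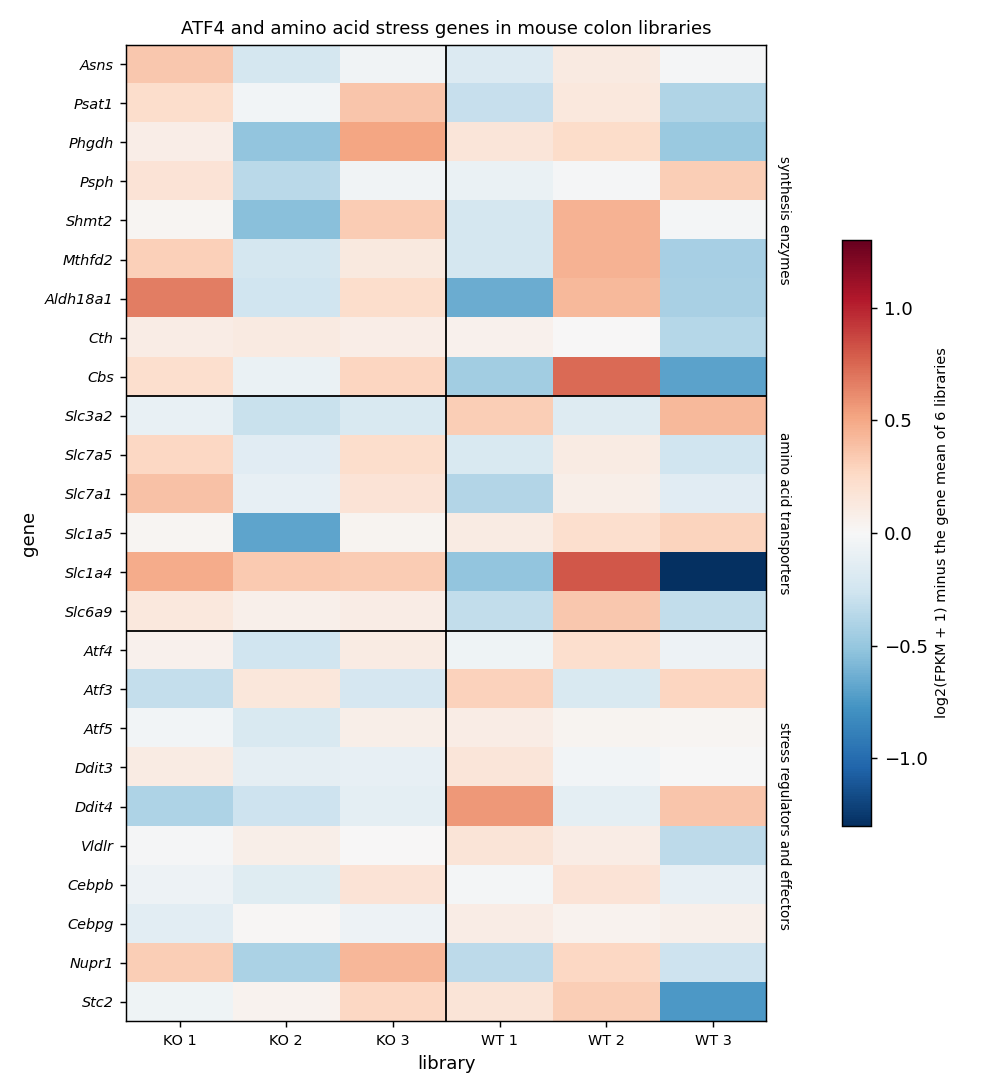
Log2(FPKM + 1) of each of the 25 tested colon members minus its mean over the 6 libraries (colour, blue below and red above). KO is left of WT, and genes are grouped by class. WT colon 2 lies within the KO range in 12 members, and in Slc1a4 and Cbs it is red where WT colons 1 and 3 are blue.

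Results in colon depended on WT colon 2. It lay within the KO range in 12 of the 25 members, against 50.9% of all genes, while WT colons 1 and 3 were both below the KO range in 8, against 23.5%, and both above it in 5, against 24.9%. Without WT colon 2, Cbs (0.71 ± 0.14; limma, adjusted p = 0.0206), Slc1a4 (1.36 ± 0.26; 0.0174) and Slc6a9 (0.41 ± 0.10; 0.0380) were higher in KO colons and Slc3a2 (-0.57 ± 0.092; 0.0107) and Ddit4 (-0.73 ± 0.12; 0.0107) lower, in a fit where 9.21% of all 11344 genes were called higher and 7.19% lower. That library has no label that sets it apart, so the fit with all 3 WT colons stands as the result.

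HOX genes, whose levels follow position along the gut, and cell type markers differed between the colon libraries. A position score was taken as the mean log2 level of the HOX genes Hoxb6, Hoxb7 and Hoxb8 less the mean of Hoxa13, Hoxb13, Hoxd11, Hoxd12 and Hoxd13. It was 2.68, 1.28 and 1.78 in KO colons 1, 2 and 3, against -2.43, 1.88 and -4.42 in WT colons 1, 2 and 3. Of the WT colons only WT colon 2 lay within the KO range. In the fit without WT colon 2, genotype and position score therefore cannot be told apart, and this holds for the members called there. With the score as a covariate 0 members and 0 genes were called in limma, with 426 genes at an unadjusted p under 0.05. The log2 difference was then -0.20 ± 0.17 for Ddit4 and -0.084 ± 0.13 for Slc3a2. It was negative for Slc1a4 (-0.44 ± 0.17), Cbs (-0.56 ± 0.15) and Slc6a9 (-0.20 ± 0.14). Since no other WT colon lay within the KO range of the score, these differences rest largely on WT colon 2. That library was the highest of the 6 for Slc1a4, Cbs and Slc6a9. The 6 goblet cell markers summed to 2278 to 4036 FPKM in KO colons and 4657 to 5943 FPKM in WT colons. The 5 adipocyte markers summed to 32.8 to 105 FPKM in KO colons and 6.07 to 19.7 FPKM in WT colons, and the 6 smooth muscle markers summed to 461 to 739 FPKM in KO colons and 355 to 577 FPKM in WT colons. The part of cell makeup in these results was not tested.

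Among related genes in colon, 0 of 15 stress sensors and eIF2 control genes, 13 other ATF4 targets, 16 genes of the unfolded protein response, 11 other one-carbon enzymes and 12 other transporters were called by limma. At an unadjusted p under 0.05 there were 1, 3, 0, 1 and 4 in that order, against 12.5% of all genes. Mat2a had 298, 232 and 217 FPKM in KO colons, against 141, 196 and 158 FPKM in WT colons, with groups apart (0.59 ± 0.17; adjusted p = 0.396), and MAT2A signal was also higher with doxycycline in RKO, not called in either system. Eif2ak2 had 24.6, 21.5 and 22.6 FPKM in KO colons, against 16.7, 19.6 and 16.1 FPKM in WT colons (0.37 ± 0.10), the opposite direction to RKO. Slc38a2 had 57.9, 60.1 and 58.6 FPKM in KO colons, against 51.7, 53.2 and 44.8 FPKM in WT colons (0.24 ± 0.087), also opposite. Sesn2, which inhibits mTORC1 when leucine is short, had a log2 difference of 0.55 ± 0.21 and Gpt2 of -0.48 ± 0.20. Slc6a14, a broad amino acid carrier abundant in colon epithelium, had 311, 372 and 344 FPKM in KO colons, against 269.7, 290.2 and 239.6 FPKM in WT colons (0.36 ± 0.11), and Slc1a1, a glutamate carrier, 8.32, 7.17 and 9.50 FPKM in KO colons, against 17.0, 8.99 and 24.1 FPKM in WT colons (-0.83 ± 0.32). The adjusted p was 0.396 for each of Eif2ak2, Slc38a2, Sesn2, Gpt2, Slc6a14 and Slc1a1.

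Completing the up to 3 genes of lowest p within each of these lists, with no ranking across the lists, were Eif2s2 (-0.38 ± 0.17) and Eif2b3 (-0.43 ± 0.24) of translation initiation, the chaperones Calr (-0.35 ± 0.14), Pdia6 (-0.28 ± 0.13) and Hsp90b1 (-0.18 ± 0.11), the serine carrier of mitochondria Sfxn1 (-0.45 ± 0.19), the folate enzyme Mthfd1 (-0.35 ± 0.16) and the lysosomal carrier Slc36a4 (0.42 ± 0.16). All were below 0 except Slc36a4, and 0 were called.

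Between the systems, which share no library, 21 members were tested in both. Below 0 in both were 10, against 34.7% of the 8747 genes with the same symbol that were tested in both: PSPH, SLC3A2, SLC1A5, ATF4, ATF3, ATF5, DDIT3, DDIT4, CEBPB and CEBPG, 7 of them regulators. Another 10 were below 0 in RKO and above 0 in colon, against 24% of those genes, among them ASNS, PSAT1, PHGDH and MTHFD2. SHMT2 was above 0 in RKO and below 0 in colon, against 22.6%, and 0 were above 0 in both, against 18.8%. The signs of 4 of the first 10 rested on single libraries. Without doxycycline library 2 the RKO log2 fold change was 0.016 for ATF4, 0.090 for SLC1A5, 0.092 for ATF5 and 0.046 for CEBPB. In colon it was 0.050 for Atf4 without KO colon 2 and 0.049 for Cebpb without WT colon 2. DDIT4 was the one member whose groups did not overlap, in the same direction, in both systems, against 2.13% of those genes in either direction and 1.49% lower. Its level was 69.9% of the control mean with doxycycline in RKO and 66.5% in KO colons, with log2 fold changes of -0.52 and -0.53, called in RKO and not in colon. With the couples as a block DDIT4 was not called in RKO. In colon, KO colon 3 (14.95 FPKM) and WT colon 2 (14.98 FPKM) nearly met. With the position score as a covariate the colon difference was -0.20 ± 0.17. The difference between the systems was not tested.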

How the data were processed

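RNA of 12 libraries was analysed from 2 deposited tables, each on its own because they were normalized separately. Tools named in the submitters' processing notes are HISAT, Bowtie2, HTSeq and edgeR, with the build hg19 and no versions, roles or order. The mouse build is not given in the sources used here. The RKO table is labelled by the authors as FPKM adjusted for batch with ComBat. Its values follow read counts rather than FPKM (library sums of at least 9050161, and a Spearman correlation of 0.29 with transcript length over the 84.1% of genes with a length), so the deposited values are called signal. Mouse values are FPKM as deposited, per the file headers. Read depth is unknown for both, so no counting interval is given. No per-sample column was left unused.

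Values were taken as log2(value + 1), which understates the change of low genes. The minimum mean over 6 libraries was 1, which kept 15590 RKO and 11366 colon genes. Groups were compared by the two-sided moderated test of limma 3.58.1 (R 4.3.3), fitted across all genes with a variance trend. The test had been set for FPKM and was kept. Calls needed an adjusted p (Benjamini-Hochberg, whole table) under 0.05. Levels carry the SD over 3 libraries and fold changes the SE. The procedure was tested on simulated data.

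The members and lists were chosen with earlier results of these data known. Every member is accounted for. Values of each library are given for members called or with groups that do not overlap and for ATF4, ATF5, DDIT3 and CEBPG, then for up to 8 more of a class by lowest unadjusted p, and for up to 3 genes of each related list. A gene of these lists is not reported here, and the counts include it.

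Alternatives were pseudocounts of 0.1 and 10, no minimum mean or one of 5, equal sums, quantile normalization, median centring, robust variance, the replicate number or the couples of libraries with equal values as a block, a colon position score as a covariate and each library left out in turn. Removal of the trend with GC content (lowess, span 0.3) was added after seeing the data, with GC content from GENCODE transcripts. Promoters came from RefSeq on GRCh38.p14, another build than the tables.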

Additional observations from a re-analysis of the deposited data

How the results depend on the processing

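No member was called higher in RKO under any alternative. The 178 called RKO genes became 88 with the GC trend removed, 1 with the replicate number as a block and 0 with the couples as a block (1670 at an unadjusted p under 0.05). Members called lower, 2 as reported, were 1 with the GC trend removed or quantile normalization and 0 with either block. Between same-numbered libraries the correlations of deviations were 0.081, -0.53 and 0.063 in RKO and -0.45, -0.14 and 0.15 in colon. Of the couples with equal values, doxycycline library 2 and untreated library 2 share a replicate number, and the other couple does not. Whether the numbers pair the remaining libraries is not known. The replicate block left 0 colon genes called, as without it. ALDH18A1 turned to 0.011 with the GC trend removed, 0.0098 with equal sums, 0.013 with median centring and 0.037 with quantile normalization. With the GC trend removed CTH turned to 0.0056, PYCR1 to -0.041 and SHMT2 to -0.020. The cause of these changes was not tested.

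With the position score as a covariate the median of the colon members was -0.17, and 12 members turned: Asns to -0.12, Phgdh to -0.33, Mthfd2 to -0.41, Aldh18a1 to -0.20, Cbs to -0.56, Slc7a5 to -0.020, Slc1a4 to -0.44, Slc6a9 to -0.20, Atf3 to 0.078, Vldlr to -0.13, Nupr1 to -0.17 and Stc2 to -0.32. The values with the covariate rest largely on WT colon 2, the only WT colon within the KO range of the score. The cause was not tested.

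With each library left out in turn, RKO genes called ranged between 1 and 24 and members called lower between 0 and 2, and the members' median between -0.31 and 0.0045. Log2 fold changes ranged in RKO between -0.26 and 0.091 for ASNS, -0.18 and 0.027 for PHGDH, -0.11 and 0.075 for SHMT2, -0.038 and 0.067 for PYCR1, -0.0066 and 0.0065 for ALDH18A1, -0.17 and 0.14 for CTH, -0.12 and 0.090 for SLC1A5, -0.15 and 0.16 for SLC1A4, -0.42 and 0.14 for SLC6A9, -0.21 and 0.016 for ATF4, -0.11 and 0.092 for ATF5, -0.66 and 0.0038 for TRIB3, -0.46 and 0.016 for CHAC1 and -0.17 and 0.046 for CEBPB. In colon, genes called ranged between 0 and 1861, members called higher between 0 and 3 and lower between 0 and 2, and the median between -0.095 and 0.18. There the ranges were -0.11 and 0.18 for Asns, -0.19 and 0.33 for Phgdh, -0.33 and 0.11 for Shmt2, -0.041 and 0.40 for Mthfd2, -0.0046 and 0.71 for Cbs, -0.13 and 0.050 for Atf4, -0.11 and 0.14 for Vldlr, -0.13 and 0.049 for Cebpb and -0.16 and 0.38 for Stc2. All colon calls arose without WT colon 2, where genotype and position score cannot be told apart.

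Pseudocounts, minimum means and robust variance changed no call of a member. Depth is unknown, so its limits cannot be stated. With 3 libraries a group, a change that misses the threshold is not shown to be absent.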

Other observations

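The means of the 3 couples of RKO libraries differed little, with a median range of 0.13 on the log2 scale over the members and 0.078 over all genes, while the range over the 6 libraries was 0.73 over the members and 0.24 over all genes. ALDH18A1, flat across the RKO libraries, varied in colon between 6.65 and 13.5 FPKM in KO colons and between 4.85 and 11.3 FPKM in WT colons. In colon, KO colon 2 was the lowest of the 6 libraries in 11 of the 25 members, against 36.4% of all genes, and WT colon 3 in 9, against 26.0%.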
